A study of Mus musculus with 28 samples.

Results

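The comparison described here sets kidneys of male mice carrying the Q form of aquaporin-3 (Aqp3) against kidneys of male mice carrying the R form. Per the labels, Q is a mimetic of the acetylated state of a lysine and R a mimetic of the deacetylated state, so neither group carries the wild-type (WT) protein. The 10 libraries were chosen by their labels alone, as the 5 male Q and 5 male R libraries among 28 in all. The other libraries were 5 female Q, 3 female R, 5 male WT and 5 female WT, and they entered the fit and served as points of reference. All mice were untreated, had pelleted food and tap water, and gave their kidneys between zeitgeber hours 2 and 5. The labels give neither age nor strain. Nothing in them ties a library to its own animal, so p-values measure the spread between these libraries, which may in part be technical. The labels also do not say how the mimetic alleles were made or which cells carried them.

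Aquaporin-3 is an aquaglyceroporin, a channel for water and glycerol, on the basolateral side of principal cells in the collecting duct. Water enters these cells from the tubule through aquaporin-2 and leaves them through aquaporin-3 and aquaporin-4. In such mimetics glutamine (Q) stands in for acetyl-lysine because it removes the positive charge, and arginine (R) keeps the charge but cannot be acetylated. Sequencing of polyadenylated RNA from the whole kidney reads the transcripts of every cell type together. In such bulk samples fewer cells of a type and less RNA per cell cannot be told apart.

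The count totals ran from 16360833 to 19951957 in male Q libraries and from 17608533 to 21283031 in male R libraries. Levels are given as edgeR's CPM, the counts relative to the library total after scaling by the trimmed mean of M values (TMM). They are not divided by transcript length, so they are compared between libraries and not between genes. The tissue check used markers of the nephron segments, and all 8 were present in each of the 10 libraries. The proximal tubule phosphate transporter gene Slc34a1 ran from 5393 to 7039 CPM. The library labelled male Q replicate 4 stood apart from the other 9, so values without it are given beside many of the results, though not beside all.

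Male Q replicate 4 lay above all 9 other libraries for 5110 genes and below all of them for 5179, which is 58.55% of the tested genes. The other libraries did so for 11.4 to 22.9% of genes. On the first principal component of the 10 libraries, which held 34.5% of the variance, it lay at 87.6, and the others between -22.6 and 20.9. Mitochondrially encoded transcripts were 7.74% of its counts, against 9.56 to 11.7% in the other 9. The share of mitochondrially encoded counts was 9.93 ± 1.32% in male Q and 10.6 ± 0.775% in male R, with an exact two-sided permutation p of 0.397 (smallest p possible, 0.00794). The difference, Q minus R, was -0.69 percentage points, and -0.14 without male Q replicate 4. Relative to the other Q libraries, nuclear genes of the respiratory chain were 0.84 higher at the median on the log2 scale in this library, and podocyte genes 0.79 lower. Single genes ran much lower, such as Usp33, a deubiquitinase, at 2.92 CPM against 18.6 to 34.6 CPM in the other libraries.

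**Figure D1:**
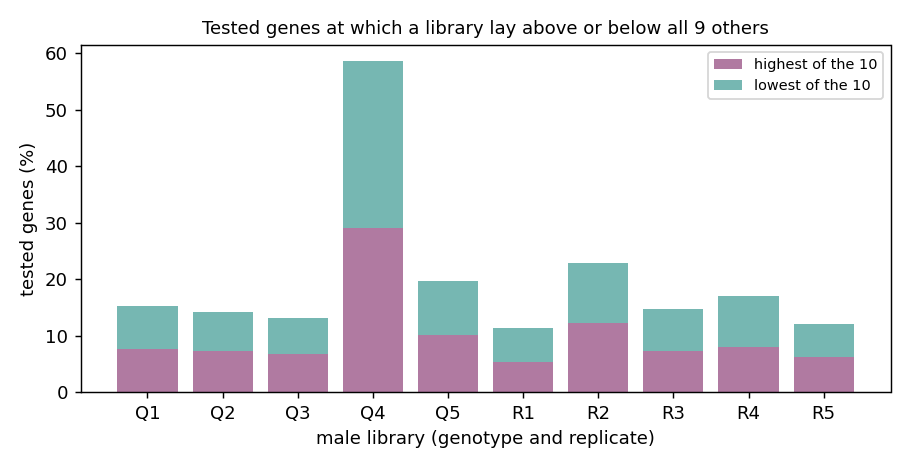
Share of the 17573 tested genes, in percent on the vertical axis, at which each male library lay above or below all 9 others, with the 5 Q libraries left of the 5 R libraries. Male Q replicate 4 stands at 58.55% and the others between 11.4 and 22.9%.

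No gene passed an adjusted p under 0.05 in male Q against male R kidneys (edgeR quasi-likelihood test, Benjamini-Hochberg adjustment). That is 0 of 17573 tested genes, or 0%, and the count was also 0 without male Q replicate 4. At an unadjusted p under 0.05 there were 721 genes, 4.1% of those tested. Of these, 405 were higher in Q (2.3% of tested genes) and 316 lower in Q (1.8%). All 5 Q libraries lay above all 5 R libraries for 48 genes (0.273% of tested genes), and below them for 48 genes (0.273%). DESeq2 called 1 gene, Gusb (0.00569% of those with a p), and limma voom with library weights called 2, Gusb and Ttbk1 (0.0114%).

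With male Q replicate 4 left out, 1501 of 17510 genes had an unadjusted p under 0.05, of which 598 were higher in Q (3.42%) and 903 lower (5.16%). The positive estimates then numbered 8434 of 17510, against 9455 of 17573 in the full comparison. Of the 721 genes of the full comparison, 414 were among those 1501, which is 57.4% of the 721 and 27.6% of the 1501. The sign was kept in 715 of the 717 that were tested in both. The comparisons share every library but male Q replicate 4, and the 721 were picked for their p, so nothing is read from this.

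The altered gene itself, Aqp3 (ENSMUSG00000028435, on chromosome 4), was measured first. Aqp3 had 115, 110.4, 115, 98.0 and 117 CPM in male Q kidneys, against 119.8, 118, 116, 99.1 and 114 CPM in male R kidneys. The groups overlapped, and the lowest library of each group was its replicate 4. The fitted log2 fold change of Aqp3, Q minus R, was -0.03, with a 95% interval from -0.23 to 0.18. Its sign depended on the library that stood apart, since the value was 0.01 without male Q replicate 4. Counts over the whole gene do not show the altered codon, so this level says nothing of which allele a library carried.

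**Figure D2:**
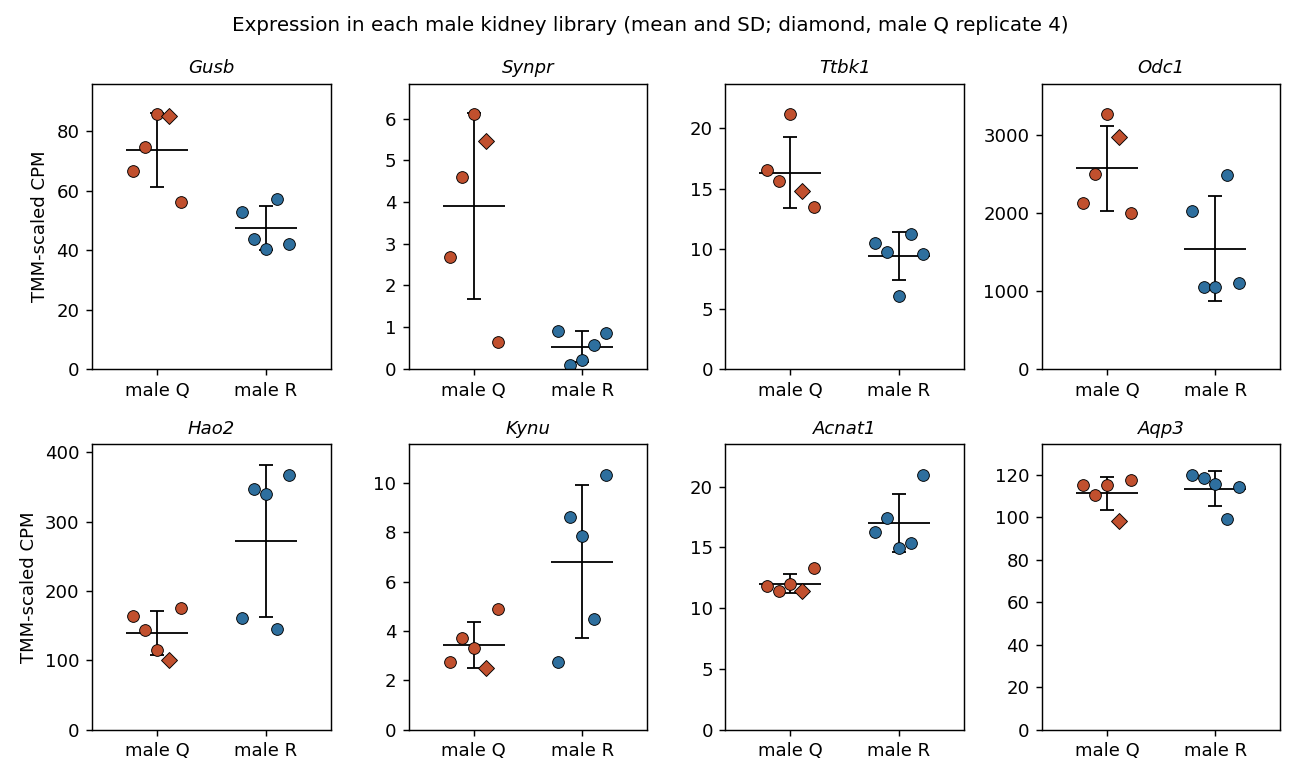
Levels of 8 genes in each male kidney library, in TMM-scaled CPM on the vertical axes, with male Q left of male R; points are libraries, the diamond is male Q replicate 4, and bars are the mean and SD over 5 libraries. Ttbk1 and Acnat1 separate the groups, Gusb and Synpr overlap by 1 Q library, Odc1, Hao2 and Kynu have 2 R libraries within the Q range, and Aqp3 overlaps throughout.

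The gene with the smallest p was Gusb (ENSMUSG00000025534, on chromosome 5), which encodes the lysosomal enzyme beta-glucuronidase and is a classic androgen-responsive transcript of the mouse kidney. Gusb had 66.8, 74.6, 85.8, 85.0 and 56.4 CPM in male Q kidneys, against 53.0, 43.9, 40.2, 57.3 and 42.2 CPM in male R kidneys. Of the 5 Q libraries, 4 lay above every R library, and Q replicate 5 lay just under R replicate 4, so the groups overlapped. The mean was 73.7 ± 12.5 CPM in male Q, 47.3 ± 7.42 CPM in male R and 52.7 ± 8.26 CPM in male WT (SD, 5 libraries each). The log2 fold change of Gusb, Q minus R, was 0.64 with a standard error (SE) of 0.12 and an edgeR adjusted p of 0.0978. With male Q replicate 4 left out, the log2 fold change was 0.58 and the adjusted p 0.209. It was 0.00316 with DESeq2, 0.0162 with voom, 0.00759 in edgeR without male Q replicate 5 and 0.0355 in edgeR without male R replicate 4. In edgeR the adjusted p of Gusb was 0.128 with the replicate number as a block. It reached 0.764 when each male Q or R library was left out in turn. In females, Gusb stood at 32.0 ± 2.55 CPM in Q and 30.8 ± 2.13 CPM in R (SD, 5 and 3 libraries).

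Synpr, which encodes the synaptic vesicle protein synaptoporin, had the largest fold among the named genes at a low level. Its values were 2.69, 4.61, 6.11, 5.47 and 0.650 CPM in male Q kidneys, against 0.912, 0.0943, 0.204, 0.577 and 0.860 CPM in male R kidneys. The Q library at 0.650 CPM lay within the R range. The log2 fold change of Synpr was 2.90 with an edgeR adjusted p of 0.129, and without that library, male Q replicate 5, the adjusted p was 0.00759. With all libraries it was 0.198 with DESeq2 and 0.126 with voom. In edgeR it reached 0.764 when each male Q or R library was left out in turn. Ttbk1, a kinase that phosphorylates tau, had 16.6, 15.6, 21.2, 14.8 and 13.5 CPM in male Q kidneys, against 10.5, 9.71, 6.06, 11.2 and 9.57 CPM in male R kidneys. Every Q library lay above every R library for Ttbk1. Its log2 fold change was 0.80, with an adjusted p of 0.678 in edgeR, 0.110 in DESeq2 and 0.0241 in voom. Over the single omissions in edgeR the adjusted p ran from 0.248 to 0.9997. Ttbk1 shares exon bases with a gene on the other strand, and counting used no strand option, so reads within the shared bases cannot be told apart.

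Among the 12 genes higher in Q with the smallest p and a mean of at least 1 CPM, 4 had no overlap between the groups, beside 0.273% of tested genes, and nothing is read from that count because these genes were picked for their p. The 4 were Ttbk1, Ace, Ttc25 and Slc30a2. Ace, the angiotensin-converting enzyme of the proximal tubule brush border, had 313, 313, 313, 314 and 298 CPM in male Q kidneys, against 269.6, 259, 225, 241 and 198 CPM in male R kidneys. The Q libraries of Ace lay within a narrow band above the whole R range, and the log2 fold change was 0.38. Slc30a2, a zinc exporter, averaged 127 ± 7.36 CPM in male Q and 92.5 ± 13.7 CPM in male R. Kyat1, a kynurenine aminotransferase, averaged 121 ± 23 CPM in male Q and 86.5 ± 15.3 CPM in male R. The ubiquitin ligase genes Mkrn1 and Rnf180 had log2 fold changes of 0.41 and 1.28. The values were 0.39 for the helicase gene Helz, 1.09 for the mitotic cyclin gene Ccnb2 and 0.81 for Ttc25, a protein of the docking complex of ciliary dynein. Igha, the constant region of immunoglobulin A, had a log2 fold change of 1.92, which was 0.99 without male Q replicate 4, the library at 146 CPM.

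Among the 12 genes lower in Q, the smallest p belonged to Hao2, a peroxisomal hydroxyacid oxidase. Hao2 had 164, 143, 115, 101 and 176 CPM in male Q kidneys, against 161, 346, 339.6, 145 and 367 CPM in male R kidneys. The R libraries formed a high trio and a low pair, and the low pair, replicates 1 and 4, lay within the Q range. The log2 fold change of Hao2 was -0.96, with an edgeR adjusted p of 0.806. Kynu, the kynureninase of tryptophan breakdown, had 2.75, 3.73, 3.29, 2.49 and 4.88 CPM in male Q kidneys, against 2.74, 8.63, 7.84, 4.50 and 10.3 CPM in male R kidneys. The same R replicates 1 and 4 lay lowest for Kynu, whose log2 fold change was -0.99. No overlap was seen for Pcolce2, Acnat1, Hoxb2, Art4 and Adora1, which were picked for their p in the same way. Acnat1, a peroxisomal acyltransferase, averaged 12.0 ± 0.784 CPM in male Q and 17 ± 2.40 CPM in male R, with a log2 fold change of -0.50. Adora1, the A1 adenosine receptor, averaged 4.97 ± 0.790 CPM in male Q and 7.94 ± 2.03 CPM in male R. The log2 fold change was -0.33 for Gabarapl1, an autophagy gene, -0.53 for Fgg, the fibrinogen gamma chain, -0.41 for Lyplal1, a lysophospholipase-like gene, and -0.86 for Klc3, a kinesin light chain. H2-Q10, a secreted class I histocompatibility gene, was at -1.84, and reads of that family can be shared between near-identical copies. Ace, Mkrn1, Helz, Klc3, Hoxb2, Gabarapl1, Fgg and Adora1 share exon bases with a gene on the other strand, as Ttbk1 does.

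**Figure D3:**
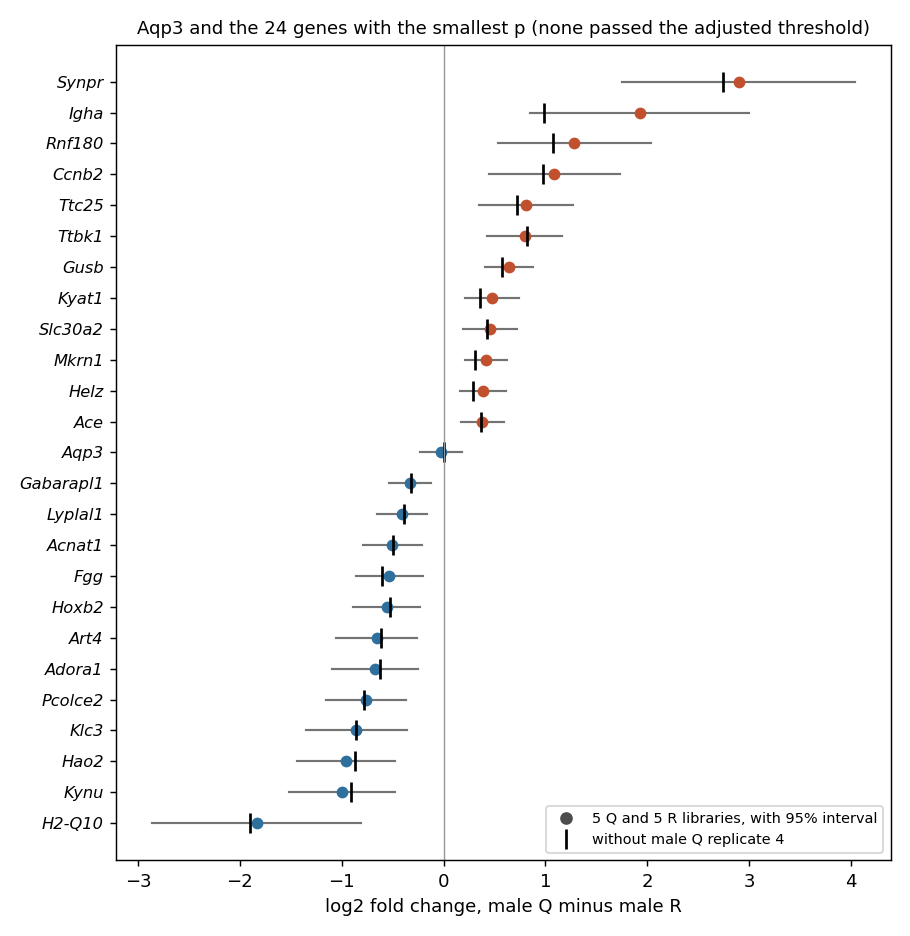
Log2 fold changes, male Q minus male R, on the horizontal axis for Aqp3 and the 24 genes with the smallest p, with 95% intervals as grey lines and the value without male Q replicate 4 as black ticks. The signs of the 24 are kept without that library, Igha is at 1.92 with it and 0.99 without it, and Aqp3 is at -0.03 with it and 0.01 without it.

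Many of these named genes also differ between the sexes in WT kidneys. The mouse proximal tubule is sexually dimorphic, and androgen acting on its receptor in tubule cells is known to raise a set of male-biased transcripts that includes Gusb and Odc1. To read the comparison against this axis, autosomal genes were taken that differed between male WT and female WT at an edgeR adjusted p under 0.05 and by at least 1 on the log2 scale. The WT libraries are not among those of the comparison. There were 336 genes higher in WT males (1.91% of tested genes) and 373 higher in WT females (2.12%). The library labelled female WT replicate 2 had 0.515 CPM of Xist, while the other 12 female libraries had 214 to 435 CPM. Its summed Y-linked level was 4.17 CPM, against 142 to 180 CPM in males. It was thus unlike the other females in Xist and unlike the males in Y-linked level, and whether its label is right was not tested.

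Genes higher in WT males had, by count, mostly higher values in male Q than in male R. Of the 336, 255 had a positive log2 fold change, against 53.8% of all tested genes. At an unadjusted p under 0.05, 63 were higher in Q (18.8% of the list, against 2.3% of tested genes) and 3 were lower. The median log2 fold change of the list was 0.18, beside 0.01 over all tested genes. No member passed the adjusted threshold. Without male Q replicate 4, 240 were positive, 57 were higher at that p (beside 3.42% of tested genes) and the median was 0.15. The count at that p ran from 40 to 80 when each library was left out in turn, with the lowest of 40 without male Q replicate 3, and 42, 42 and 41 without male R replicates 2, 3 and 5. Separation of the groups was seen for 7 members, all with Q above R (2.08%, against 0.273% of tested genes).

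Genes higher in WT females showed the opposite sign. Of the 373, 255 had a negative log2 fold change, 116 a positive one, and the median was -0.15. At an unadjusted p under 0.05, 32 were lower in Q (8.58%, against 1.8% of tested genes) and 4 were higher. Without male Q replicate 4 the number lower at that p was 40 (beside 5.16% of tested genes) and the median was -0.14. Without male R replicate 5 the number was 21, the smallest of the 10 values. When both lists were made again without female WT replicate 2, the medians were 0.18 for 333 genes and -0.16 for 337 genes.

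The genes with an unadjusted p under 0.05 were also counted against the WT sex difference. Without the fold limit, 1399 tested autosomal genes were higher in WT males (7.96%) and 1408 higher in WT females (8.01%). Of the 405 genes higher in Q, 137 were higher in WT males (33.8% of the 405 and 9.79% of the 1399) and 9 higher in WT females. Of the 316 genes lower in Q, 92 were higher in WT females (29.1% of the 316 and 6.53% of the 1408) and 7 higher in WT males. Among the named genes, 7 of the 12 higher in Q were higher in WT males, and 8 of the 12 lower in Q were higher in WT females. The remaining named genes were in neither set.

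**Figure D4:**
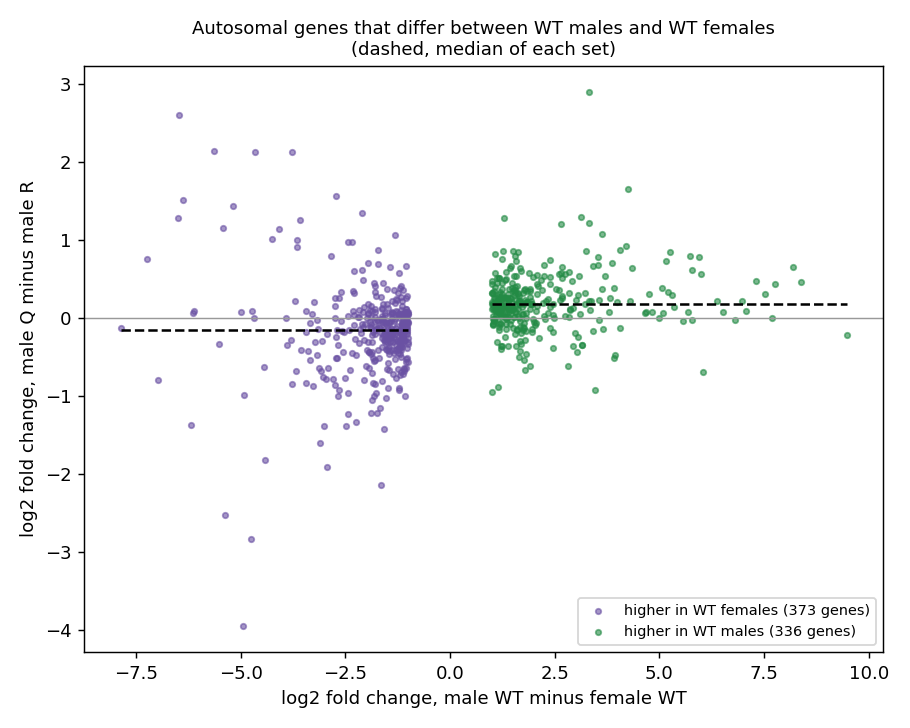
Log2 fold change of male Q minus male R on the vertical axis against that of male WT minus female WT on the horizontal axis, for the 336 autosomal genes higher in WT males and the 373 higher in WT females; dashed lines are the medians, 0.18 and -0.15. The points spread widely around each median, and 81 genes of the first set and 116 of the second have the sign opposite to the median of their set.

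The libraries did not divide cleanly by genotype on this axis. For genes higher in WT males, the median log2 difference from the mean of the 10 libraries was 0.02, 0.10, 0.19, 0.13 and 0.07 in male Q libraries, against 0.02, -0.17, -0.17, 0.11 and -0.22 in male R libraries. Male R replicates 1 and 4 lay in the Q range and replicates 2, 3 and 5 far below it. For genes higher in WT females, the medians were -0.05, -0.08, -0.10, -0.15 and -0.04 in male Q libraries, against 0.02, 0.12, 0.07, 0.01 and 0.16 in male R libraries. There the 2 groups did not overlap, and male R replicates 1 and 4 were again those nearest to Q.

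Genes known as male-biased in the mouse proximal tubule, a list of 16 compiled from textbook knowledge with earlier results of these data in view, had 15 positive log2 fold changes and a median of 0.27. At an unadjusted p under 0.05, 7 of the 16 were higher in Q and 0 lower, beside 2.3% and 1.8% of all tested genes. The 7 became 5 without male Q replicate 4, and 4 without male Q replicate 3 or without male R replicate 5. Odc1, the ornithine decarboxylase that starts polyamine synthesis, had 2131, 2505, 3272, 2982 and 1998 CPM in male Q kidneys, against 2032, 1055, 1046, 2491 and 1105 CPM in male R kidneys. Male R replicates 1 and 4 lay within the Q range and the other R libraries well below it. The log2 fold change of Odc1 was 0.74, and its mean in male WT was 1307 ± 359 CPM. Slco1a1, an organic anion transporter with 1.21 ± 0.336 CPM in female WT, had 436, 607, 754, 398 and 506 CPM in male Q kidneys, against 412, 252.2, 244, 574 and 232 CPM in male R kidneys. It showed the same pair of R libraries among the Q values and a log2 fold change of 0.66. For Adh1, an alcohol dehydrogenase, the log2 fold change of 0.58 was 0.25 without male Q replicate 4, which had 1696 CPM.

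Of the 7 genes higher in WT males with no overlap, Ttbk1 and Slc30a2 are described above, and the others were Srd5a2, Galns, Clip4, Pzp and 1 gene known only by a Rik name. These were picked after their values were seen. Srd5a2, the steroid 5-alpha-reductase that makes dihydrotestosterone, had 15, 18.9, 22, 14.2 and 15.9 CPM in male Q kidneys, against 11, 9.71, 9.27, 11.7 and 7.15 CPM in male R kidneys. Every Q library was above every R library, the log2 fold change of Srd5a2 was 0.82, and the mean in male WT was 10.9 ± 3.35 CPM. Galns, a lysosomal sulfatase, averaged 152 ± 11.9 CPM in male Q and 123 ± 7.06 CPM in male R. Pzp, an alpha-macroglobulin, averaged 129 ± 17.1 CPM in male Q and 95.3 ± 7.71 CPM in male R.

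The female-biased list held 6 tested genes, of which 4 had negative log2 fold changes, 1 with an unadjusted p under 0.05. That 1 was Slc7a12, an amino acid transporter, with 2.75, 4.74, 2.23, 1.62 and 1.57 CPM in male Q kidneys, against 1.88, 20.5, 8.30, 2.65 and 11.2 CPM in male R kidneys. Prlr, the prolactin receptor, had 12.4, 19.7, 10.1, 14.7 and 14.3 CPM in male Q kidneys, against 11.4, 38.7, 34.5, 6.63 and 37.7 CPM in male R kidneys. For Slc7a12 and for Prlr, male R replicates 2, 3 and 5 were above every Q library, and R replicates 1 and 4 lay within or below the Q range.

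**Figure D5:**
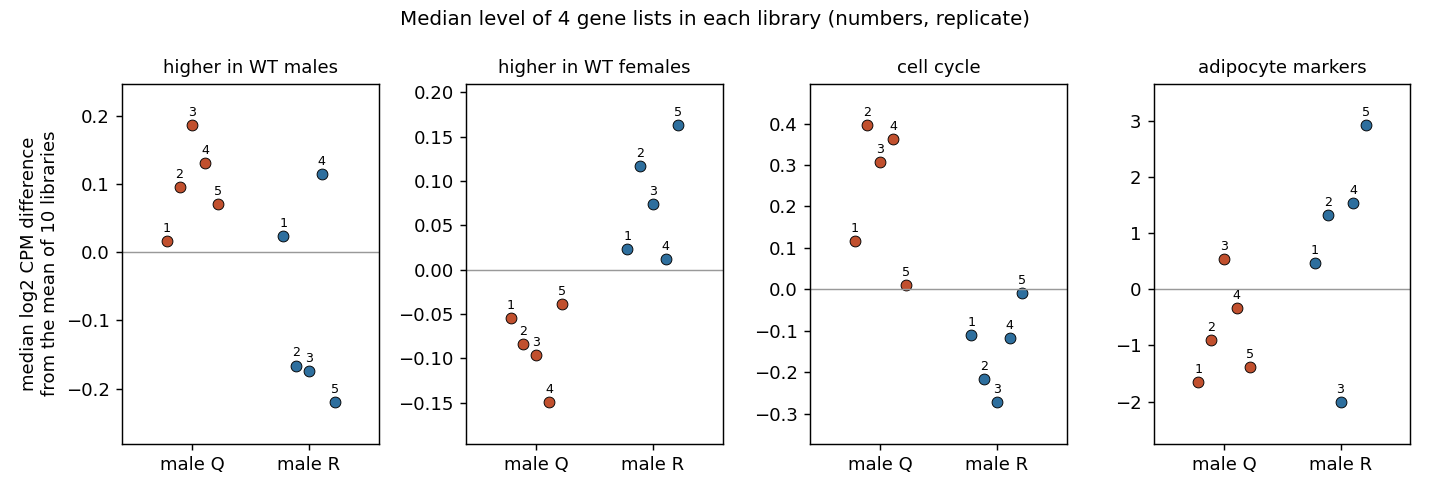
Median log2 CPM of 4 gene lists in each library, as the difference from the mean of the 10 male libraries, with male Q left of male R and numbers giving the replicate. In the 2 panels of WT sex genes, R replicates 1 and 4 lie nearest the Q libraries; in the cell cycle panel the nearest libraries are Q replicate 5 at 0.01 and R replicate 5 at -0.01, and the adipocyte panel spreads from -2.01 to 2.92 within R alone.

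In females the same lists lay closer to 0, a difference from males that was not tested for the lists. No gene was called in female Q against female R (0%), and the median log2 fold change there was 0.02 for genes higher in WT males and -0.06 for genes higher in WT females. Female Q replicate 5 stood apart from its group, with a chi-square per degree of freedom of 77.35 to 110.2 against the other female Q libraries. Among those others it ran from 9.686 to 30.72. The female values here include that library, and values without it are not given. Across all tested genes, 52.8% had the same sign in females as in males, and 56.7% of the 721 did. The test of the difference itself, male minus female of Q minus R, called 0 genes at an adjusted p under 0.05 and 558 at an unadjusted p (3.18%). Of the 24 named genes, which were picked on the male comparison, 15 had an unadjusted interaction p under 0.05. Ace had the smallest of them, 8.62e-05, and its log2 fold change was 0.38 in males and -0.33 in females. Its mean in females was 196 ± 34 CPM in Q and 247 ± 14.9 CPM in R (SD, 5 and 3 libraries). Its adjusted interaction p was 1 (edgeR).

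The aquaporins as a group showed small differences. Of 9 tested members, 7 had negative log2 fold changes, and 1, Aqp4, was lower at an unadjusted p under 0.05 (beside 1.8% of all tested genes). Without male Q replicate 4, or without male R replicate 2, no aquaporin had such a p. Without male Q replicate 1, male Q replicate 2 or male R replicate 4, 2 aquaporins were lower at that p. Aqp4, the other basolateral water channel of principal cells, had 28.6, 25.1, 22.1, 11.3 and 20.4 CPM in male Q kidneys, against 17.4, 55.5, 32.5, 28 and 33.1 CPM in male R kidneys. The groups overlapped through male R replicates 1 and 4, and the log2 fold change was -0.63, with an interval from -1.19 to -0.08. It was -0.48 without male Q replicate 4. Aqp1, the main water channel where filtrate is first reabsorbed, had 1019, 975, 911, 778 and 960.2 CPM in male Q kidneys, against 1048, 1076, 1109, 938 and 1139 CPM in male R kidneys. The log2 fold change of Aqp1 was -0.19, with an interval from -0.39 to 0.00. Aqp2, the vasopressin-regulated apical channel, ran from 249 to 587 CPM in male Q and from 311 to 513 CPM in male R. Aqp7, the glycerol channel of the late proximal tubule, averaged 16.1 ± 1.53 CPM in male Q and 17.3 ± 0.377 CPM in male R. Aqp9 and Aqp12 were too low to test.

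Other genes of the collecting duct and of the systems that aquaporin-3 touches gave few low p-values. Principal cell markers had 1 of 13 tested genes at an unadjusted p under 0.05, which was Aqp4 again, and a median log2 fold change of -0.01. Of all tested genes, 53.8% had positive values, and at that p 2.3% were higher in Q and 1.8% lower. The principal cell count was 2 lower in Q without male Q replicate 1 or without male R replicate 1. Without male R replicate 2 it was 1 higher and 0 lower. In the full comparison, intercalated cell genes had 0 of 15 at that p and a median of 0.06. Osmolyte and tonicity genes, which protect medullary cells against salt, had 0 of 12 and a median of -0.07, with 1 lower in Q without male Q replicate 1 or without male R replicate 1. Genes of glycerol handling had 0 of 12 and a median of -0.02, which was 0.0074 without male Q replicate 4. The writers, erasers and readers of lysine acetylation had 0 of 27 and a median of -0.01, with Hdac5 at 0.14 and Kat5 at -0.19 on the log2 scale the nearest to the threshold, and 1 of them was higher in Q at that p without male Q replicate 4. Thin limb and inner medulla genes had negative log2 fold changes for all 9 tested members and a median of -0.19, and 1 of them, Cldn4, had an unadjusted p under 0.05. That count was 0 without male R replicate 2. It was 2 without male Q replicate 1, 3 or 4, or male R replicate 1, 3 or 4. Cldn4, a tight junction claudin, averaged 23.2 ± 3.68 CPM in male Q and 30.6 ± 8.27 CPM in male R.

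Lists of metabolic genes had small medians. Fatty acid oxidation genes had 16 negative log2 fold changes among 19, beside 8116 of all 17573 tested genes. Lower in Q at an unadjusted p under 0.05 were 2 of them, beside 1.8% of all tested genes. Their median was -0.12, and -0.06 without male Q replicate 4. The 2 became 0 without male Q replicate 2 or without male R replicate 4. Without male Q replicate 4 they numbered 3, beside 5.16% of tested genes. Cholesterol synthesis genes had 11 positive values among 12, beside 53.8% of all tested genes, and a median of 0.08. Without male Q replicate 1 the positive values numbered 7 and the median was 0.02, and without male R replicate 5 they numbered 8. Hmgcs1, the cytosolic synthase of that pathway, averaged 527 ± 55.0 CPM in male Q and 438 ± 62.1 CPM in male R, a log2 fold change of 0.27, and its value in females was 0.25. In the kynurenine pathway Kynu and Kyat1 lay on opposite sides, and Ido2, an enzyme of the first step, averaged 13.6 ± 0.645 CPM in male Q and 11.3 ± 0.730 CPM in male R with no overlap.

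Cell cycle genes had mostly positive log2 fold changes, at low levels, while their summed level overlapped between the groups. It ran from 64.2 to 70.2 CPM in male Q and from 60.2 to 73.7 CPM in male R, with male R replicate 5 the highest. Of 12 tested, 10 had positive log2 fold changes, beside 53.8% of all tested genes, and 4 were higher at an unadjusted p under 0.05, beside 2.3%. The number at that p was 3 without male Q replicate 4 (beside 3.42% of tested genes), and the median was 0.40, or 0.18 without that library. Ccnb1, the mitotic cyclin, had 1.52, 1.45, 1.59, 1.68 and 0.650 CPM in male Q kidneys, against 0.608, 0.566, 0.255, 0.692 and 0.806 CPM in male R kidneys. Only male Q replicate 5 lay within the R range. Mki67, a marker of proliferating cells, averaged 3.83 ± 0.552 CPM in male Q and 2.61 ± 0.506 CPM in male R.

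Tubule injury markers were on the other side, with 9 negative log2 fold changes among 13 and 3 lower at an unadjusted p under 0.05, beside 1.8% of all tested genes. Their median was -0.17. Without male R replicate 5 it was -0.02, with 7 negative values and 2 at that p. Spp1, the secreted protein osteopontin, had 441, 443, 482, 421 and 480.3 CPM in male Q kidneys, against 536, 489.9, 561, 524 and 578 CPM in male R kidneys. Every Q library lay below every R library for Spp1, and the log2 fold change was -0.25. Spp1 is also one of the genes higher in WT females. Vcam1, an adhesion molecule of injured tubules, averaged 8.18 ± 1.23 CPM in male Q and 10.6 ± 2.13 CPM in male R, and the chemokine gene Ccl2 averaged 0.401 ± 0.236 CPM in male Q and 1.02 ± 0.526 CPM in male R.

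The chromosomal neighbours of Aqp3 were counted as a list of their own. Of 95 tested genes within 5 Mb of it, 57 had positive log2 fold changes, 5 were higher in Q and 1 lower at an unadjusted p under 0.05 (beside 2.3% and 1.8% of all tested genes), and the median was 0.06. The counts turned without male Q replicate 4, when 41 were positive, 7 were higher and 9 lower at that p (beside 3.42% and 5.16%), and the median was -0.04. Tmem8b, a membrane protein, averaged 11.1 ± 1.92 CPM in male Q and 8.57 ± 1.35 CPM in male R. B4galt1, a galactosyltransferase, averaged 62.3 ± 7.78 CPM in male Q and 47.4 ± 7.54 CPM in male R. None of the neighbours passed the adjusted threshold.

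Markers of tissue that can cling to a kidney were measured as well, and none of them passed the adjusted threshold. All 9 tested adipocyte genes had negative log2 fold changes, 5 of them at an unadjusted p under 0.05 (beside 1.8% of all tested genes), and the median was -2.17. The summed level of the list ran from 6.73 to 28.4 CPM in male Q and from 5.65 to 115 CPM in male R, and Lep, the gene of the hormone leptin, was too low to test. Adipoq, which encodes the adipocyte hormone adiponectin, had 0.449, 0.758, 3.82, 1.43 and 0.325 CPM in male Q kidneys, against 3.47, 3.35, 0.153, 4.96 and 13.1 CPM in male R kidneys. No library was at 0 for Adipoq. Male R replicate 5 was the highest, and without it the median was -1.21 and 0 genes had an unadjusted p under 0.05. Urothelial genes had 9 negative values among 9 and a median of -0.31, none with an unadjusted p under 0.05, and their summed level ran from 24.8 to 48.5 CPM in male Q and from 26.4 to 52.0 CPM in male R. Of 8 adrenal genes, 7 were too low to test. The part of these tissues in the other differences was not tested.

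The precision of the comparison can be read from the intervals. The 95% interval of the log2 fold change lay within 1 of 0 on either side for 14150 of 17571 genes (80.53%), and for 9319 of 9413 genes with a mean of at least 10 CPM (99%). Within 0.5 on either side lay 54.58% of all genes and 86.74% of those at 10 CPM or more. The median SE was 0.17 for all tested genes and 0.12 for those at 10 CPM or more.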

How the data were processed

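The authors deposited a table of raw counts, whole numbers of fragments assigned to the exons of each gene and not normalized. Per the file headers, featureCounts of Subread 2.0.1 did the counting against Ensembl release 107 (GRCm39), without a strand option. Per the submitters' processing notes, Trim Galore 0.6.7, SAMtools 1.6 and DESeq2 1.38.3 had also been used, and the aligner is not given in the sources used here. RNA had been isolated with a Zymo kit and selected for polyadenylation, per the labels' protocols. Symbols, chromosomes and neighbours of Aqp3 came from GENCODE mouse release M21 on GRCm38, an older build. Matching was by gene identifier, and coordinates are left out.

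In R 4.3.3, edgeR 4.0.16 was used with TMM scaling, and filterByExpr on the 6 groups kept 17573 of 56748 genes, holding 99.91% of all counts. The model had 6 group means over 28 libraries, with 22 residual degrees of freedom. The biological coefficient of variation was 0.176. Male Q minus male R was tested by robust quasi-likelihood, with Benjamini-Hochberg adjustment over all tested genes and a threshold of 0.05. Standard errors are the absolute log2 fold change over the square root of F, and 95% intervals rest on them. Female Q minus female R, the interaction and male WT minus female WT came from the same fit. Levels per library on the log2 scale used a prior count of 2. The smallest chi-square per degree of freedom between libraries of a group was 6.35, so none was taken as a repeat. The code was run on simulated counts in which no library stood apart, so that run does not bear on male Q replicate 4.

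The comparison and the 38 gene lists were chosen with earlier results of these data known. Lists are described by counts and medians, with no test. Named are Aqp3, genes called in the edgeR fit, without male Q replicate 4 or by DESeq2, the 12 genes with the smallest p in each direction among those averaging 1 CPM or more, and up to 4 members of each list with the smallest p. Genes with only a Gm or Rik name and pseudogenes are counted but not named. Alternatives were each library left out, only the 10 libraries, a replicate block, DESeq2 size factors, no filter, DESeq2 1.42.0 and limma 3.58.1 voom with library weights. Added after seeing the data were the omission of male Q replicate 4 together with female Q replicate 5, and WT lists made without female WT replicate 2.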

Additional observations from a re-analysis of the deposited data

Results flagged for a closer look

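In groups of 5 libraries, the gap between the most extreme library and its nearest neighbour was set against the whole range of the group. Of 52 groups checked, for Aqp3, the named genes and the mitochondrial share, 5 had a library far from the rest, and chance gives about 1 in 20. Aqp3 had 99.07 CPM in male R replicate 4, against 114.2 to 119.8 CPM in the other male R libraries. Ace had 297.7 CPM in male Q replicate 5, against 312.9 to 313.6 CPM in the other male Q libraries. Igha had 146.1 CPM in male Q replicate 4, against 14.36 to 36.53 CPM in the others. Helz had 27.87 CPM in male Q replicate 4, against 20.87 to 21.6 CPM in the others. Gabarapl1 had 855.9 CPM in male Q replicate 5, against 688 to 725 CPM in the others. Of the 5, 2 were in male Q replicate 4, the library that stood apart over all genes.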

How the results depend on the processing

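The number of genes called, 0 in the edgeR fit, stayed at 0 with DESeq2 size factors, with only the 10 male Q and male R libraries, without male Q replicate 4, and without it and female Q replicate 5. It was 1 without a filter on low counts, 1 with the DESeq2 Wald test and 2 with limma voom and library weights. Leaving out each library in turn gave 0 to 2, with 2 without male Q replicate 5 and 1 without male R replicate 4. The number at an unadjusted p under 0.05, 721 at first, was 439 with only the 10 libraries, 1948 without the filter, 2299 with voom and 1879 without male Q replicate 4 and female Q replicate 5, a setting added after seeing the data. It ran from 559 without male R replicate 5 to 1501 without male Q replicate 4. The log2 fold change of Aqp3 turned to 0.0056 without male Q replicate 4, to 0.0052 with voom and to 0.0053 without both libraries, and it ran from -0.079 to 0.0056 over the 10 single omissions. Genes with no overlap numbered 96 at first, 48 in each direction (0.273% of the 17573 tested genes each). Without male Q replicate 4, when 17510 genes were tested, they numbered 449, of which 218 were higher and 231 lower in Q. Groups with fewer libraries separate more readily, so these counts are not alike and nothing is read from the rise. The causes were not tested. The mitochondrial share differed by -0.99 to -0.14 percentage points over the single omissions. The number of lists with a positive median, 18 of 41 with the WT and neighbour lists included, ran from 15 to 21 over the single omissions and was 12 with the replicate number as a block. With that block, 0 genes were called and 658 had an unadjusted p under 0.05. The numbers were not taken as pairs, because the same-numbered libraries correlated at -0.06, 0.19, -0.23, -0.07 and -0.04 in their deviations from the group means, and only male Q replicate 2 correlated best with its own number. Of 408 values of single named genes under these settings, 401 kept their side of the threshold and 7 passed it, each of them a value of Gusb, Synpr or Ttbk1. None of the 7 changed sign. Low counts limit the precision, with a median SE of 0.17 over all tested genes and 0.12 at a mean of 10 CPM or more.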

Other observations

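Other lists held single genes with an unadjusted p under 0.05 and no call after adjustment. In the renin-angiotensin list, 7 of 9 tested genes had negative log2 fold changes and the median was -0.12. The list had 4 negative values and a median of 0.01 without male Q replicate 4. At that p, Ace and Mas1, which encodes a receptor of angiotensin-(1-7), were higher in Q, which is 2 of 9, beside 2.3% of all tested genes. The count was 1 without male Q replicate 1, 2, 3 or 5, and without male R replicate 3 or 5. It was also 1 with only the 10 male Q and male R libraries. Mas1 averaged 2.25 ± 0.334 CPM in male Q and 1.25 ± 0.707 CPM in male R. Lysosomal genes had 12 positive values among 18 and a median of 0.04. Besides Gusb, the enzyme gene Glb1, which encodes beta-galactosidase, averaged 167 ± 27.1 CPM in male Q and 142 ± 9.21 CPM in male R. Its log2 fold change of 0.24 was 0.13 without male Q replicate 4. In the oxidant defence list, the glutathione transferase gene Gsta2 averaged 174 ± 37.9 CPM in male Q and 234 ± 55.6 CPM in male R. Postn, a matrix protein of fibroblasts, averaged 1.32 ± 0.552 CPM in male Q and 2.30 ± 0.418 CPM in male R, and no gene of its list had such a p without male Q replicate 4.

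Lists of circadian clock, interferon, thick ascending limb, distal convoluted tubule, corticosteroid and sodium channel, phosphate, gluconeogenesis, podocyte and endothelial genes had no member with an unadjusted p under 0.05 in the full comparison. Without male Q replicate 4, the interferon list had 1 member lower at that p, and the distal convoluted tubule and phosphate lists had 1 higher each. Podocyte genes had 4 positive log2 fold changes among 9 and a median of -0.03, against 9 of 9 and 0.13 without that library. Nuclear genes of the respiratory chain had 8 positive values among 16, a median of 0.01 and 0 at that p. Without male Q replicate 4 they had 2 positive values, a median of -0.15 and 4 lower in Q at that p (beside 5.16% of tested genes). Positive values also went from 7 to 3 of 11 in the polyamine list and from 8 to 3 of 14 in the oxidant defence list. In the immune list they went from 10 to 4 of 15. The clock list had 2 members higher and 2 lower at that p without male Q replicate 5. The immune list had 1, the immunoglobulin gene Igkc, at 57.8 CPM in male Q replicate 4 and between 4.56 and 15.7 CPM in the other libraries, and without male Q replicate 4 the count for the list was 0. The summed level of the immune list ran from 366 to 780 CPM in male Q and from 341 to 466 CPM in male R. In the immediate early list, Fosb had 6.68 CPM in male Q replicate 1 and at most 2.27 CPM elsewhere. Of 19 tested genes of that list, 1 was higher and 0 lower in Q at that p, and the median was -0.11. Without male Q replicate 1, 0 were higher and 4 lower (beside 1.95% of tested genes), and the median was -0.44.

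Genes with an unadjusted p under 0.05 in males and in females numbered 31 of the 17573 tested, beside 721 at that p in males. Nothing is read from that count. Among those of like sign, picked after their values were seen, were S100a9, with log2 fold changes of -1.17 in males and -2.32 in females, Corin, at -0.43 in each sex, and Vnn1, at -0.40 and -0.42. Opposite signs were seen for Rgcc, at -0.41 in males and 0.51 in females. They were also seen for Itpripl1, Inafm2, Fmo5, C8a, Zfp644, Cd27, Ank3, Zbtb2, Ube4a, Ace and Ptpdc1.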
